A study of Mus musculus with 12 samples.

Results

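The transcripts of 9 genes of the Notch pathway were followed in the fetal mouse urogenital sinus: the receptor genes Notch1, Notch2 and Notch3, the ligand genes Jag1 and Dll1, and the target genes Hes1, Hey1, Hey2 and Heyl. They were picked by gene symbol from a table of 56495 genes, and all 9 were found and passed the filter on low values. RNA was sequenced at E18.5, late in gestation, in 12 libraries, which formed 4 groups of 3: mutant males, with the genotype Inv(Itga6-nsi)d11lac, wild type males, mutant females of the same genotype, and wild type females. The dissected tissue, freed of the bladder, held the proximal urethra, and that of females also the vagina, per the labels. The genotype's name speaks of an inversion that reaches Itga6, and so of chromosome 2, which also carries the HoxD cluster, Notch1 and Jag1. The labels give neither the position of the end called nsi nor a description of the d11lac allele, and do not say whether each library was made from its own embryo, so the p-values speak only of the spread among the libraries at hand. All tissue is bulk, so fewer cells of a type and less RNA per cell cannot be told apart.

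Notch receptors sit in the cell membrane and are switched on by Jagged and Delta-like ligands on a neighbouring cell. Ligand binding lets proteases cut the receptor, and its inner part moves to the nucleus, where it joins the DNA-binding protein RBPJ and turns on Hes and Hey genes, which encode repressors of transcription. The pathway is known for cell fate choices in epithelia, among them the mouse prostate, which buds from the urogenital sinus, and for its role in blood vessels, where NOTCH3 works in the mural cells.

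The upstream sequences shown are those of the 4 members that were called in the genotype comparisons: the 3 receptor genes, whose transcripts moved the same way, and Hey2, which moved the other way. Each is the 250 bases before the gene's start in RefSeq (GRCm38.p6), written from 5′ to 3′ on the strand of the gene. They lie at chr2:26503823-26504072 on the minus strand for Notch1, chr3:98013288-98013537 on the plus strand for Notch2, chr17:32166891-32167140 on the minus strand for Notch3 and chr10:30842784-30843033 on the minus strand for Hey2. Capitals mark the core letters of the RBPJ motif, TGGGAA, or TTCCCA where it reads on the other strand.
Notch1: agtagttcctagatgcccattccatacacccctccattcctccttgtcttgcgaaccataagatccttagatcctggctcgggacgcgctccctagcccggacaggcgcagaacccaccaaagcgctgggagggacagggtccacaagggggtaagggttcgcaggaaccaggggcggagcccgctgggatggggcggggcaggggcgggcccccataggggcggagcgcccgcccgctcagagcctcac
Notch2: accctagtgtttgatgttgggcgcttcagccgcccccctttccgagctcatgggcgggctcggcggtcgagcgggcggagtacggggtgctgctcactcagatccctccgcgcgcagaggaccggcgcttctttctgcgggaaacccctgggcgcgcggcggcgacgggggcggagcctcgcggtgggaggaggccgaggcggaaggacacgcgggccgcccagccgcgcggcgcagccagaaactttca
Notch3: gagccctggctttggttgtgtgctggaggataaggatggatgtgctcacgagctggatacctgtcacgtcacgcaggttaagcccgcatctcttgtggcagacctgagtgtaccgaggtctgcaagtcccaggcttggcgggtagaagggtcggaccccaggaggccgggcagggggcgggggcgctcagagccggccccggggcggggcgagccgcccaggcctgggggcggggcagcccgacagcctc
Hey2: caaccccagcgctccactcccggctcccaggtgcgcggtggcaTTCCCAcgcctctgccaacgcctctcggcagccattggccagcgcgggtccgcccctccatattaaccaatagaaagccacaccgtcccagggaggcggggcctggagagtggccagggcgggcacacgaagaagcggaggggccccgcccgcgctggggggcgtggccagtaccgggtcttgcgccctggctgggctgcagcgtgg
Of the 9 members, 6 had an upstream sequence in the RefSeq table. TGGGAA, searched on both strands, stood once before Hey2, with its first base at -207 from the start, and not in the windows of Notch1, Notch2, Notch3, Jag1 or Dll1. It stood in 21.6% of the 32851 windows of that length. CACGTG, an E-box that repressors of the Hes and Hey families can bind, was in none of the 6 members' windows and in 6.0% of all windows. CACNAG, the N-box of Hes proteins, searched on both strands, stood once before Notch1, once before Notch2 and at 2 places before Notch3, against 36.7% of all windows with at least one. Matches of different motifs were counted whether or not they overlapped. GC content of the printed windows was 66% for Notch1, 72% for Notch2, 68.8% for Notch3 and 71.6% for Hey2.

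Levels are given as scaled FPKM: the deposited FPKM, which count fragments per gene length and per library, divided by a factor for each library. Over the 12 libraries, Hes1 had the highest mean of the 9 genes at 27.3 scaled FPKM, followed by Notch2 at 24.9, Notch3 at 17.1, Jag1 at 14.2, Notch1 at 9.63, Hey1 at 5.56, Heyl at 5.44, Dll1 at 2.24 and Hey2 at 2.05. Hes1 stood at the 86.0th percentile of the tested genes, and Hey2 at the 15.4th. Neighbours in this order were not always apart. The libraries of Hes1 and Notch2 overlapped in 3 of the 4 groups, as did those of Notch3 and Jag1 and those of Hey1 and Heyl, while Jag1 lay above Notch1, and Heyl above Dll1, with no overlap in any group.

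Several facts of the libraries bear on what follows. FPKM give no read counts, so depth is known only in relative terms, at 0.582 to 0.717 in the 6 mutant libraries and 0.81 to 1 in the 6 wild type libraries, with no overlap. Rn7sk, a small nuclear RNA, made up 12.2% to 14.9% of the FPKM sum in mutant male 1, mutant male 3 and wild type male 1, with the other 9 libraries listed at 0. Mutant female 1 had a summed level of 775 scaled FPKM for 5 pan-epithelial markers, against 264 to 409 in the other 11 libraries, and mutant female 3 had 26.7 for 6 neuronal markers, against 182 to 389. Hoxd13, at the end of the HoxD cluster, stood at 4.02 to 6.23 scaled FPKM in mutant males and 3.15 to 5.64 in mutant females, against 15.1 to 18.8 in wild type males and 16.1 to 20.5 in wild type females. Skeletal muscle markers summed to 246 to 353 in mutant males and 261 to 330 in mutant females. Wild type males had 428 to 609 and wild type females 287 to 375. In males 4 of 7 tested markers were called lower, where 11.6% of all tested genes were. Vaginal and Mullerian markers summed to 19.2 to 21.9 in mutant males and 31.9 to 64.9 in mutant females. Wild type males had 12.3 to 14.8 and wild type females 24.1 to 30.5. Over both sexes 3 of these 5 markers were called higher, where 18.9% of all tested genes were. The part of either in the results was not tested. Change also followed base composition. Over both sexes, the median log2 fold change of mutant over wild type was -0.35 in the lowest of 5 equal bins of GC content and -0.14, 0.02, 0.13 and 0.25 in the next 4 bins.

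The first comparison asked how the mutant genotype changed these transcripts in each sex. In males the 3 receptor genes were higher in the mutant, and neither ligand and none of the 4 target genes passed the test. In females Notch1 and Notch2 were higher and Hey2 was lower in the mutant. Over both sexes all 3 receptor genes were higher and Hey2 was lower. All tests are limma's, with the Benjamini-Hochberg adjustment over 13904 genes, and a gene is called at an adjusted p under 0.05. In males 3 of 9 members were called, all higher, where 20.3% of all tested genes were called, 8.64% higher and 11.6% lower. In females it was 2 higher and 1 lower, where 28% were called, 12.1% higher and 15.9% lower. Over both sexes it was 3 higher and 1 lower, where 40.6% were called, 18.9% higher and 21.6% lower. The median log2 fold change of the 9 members was 0.21 over both sexes, 0.22 for males and 0.17 for females, against 0.00436, -0.000603 and 0.00482 for all tested genes. After a correction of every library for GC content and transcript length, 0 of the 9 members were called in any of these comparisons, where 3.63% of all genes were called for males, 7.79% for females and 17.5% over both sexes. The medians of the members were then 0.08 over both sexes, 0.05 for males and 0.03 for females.

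Of the receptors, Notch1 (ENSMUSG00000026923, chromosome 2, 26347915 to 26406675 in mm39), known from epithelial progenitors of the mouse prostate, was at 11.66, 11.67 and 11.49 scaled FPKM in mutant males, against 7.53, 7.48 and 8.97 in wild type males. Mutant females had 9.90, 10.06 and 12.43 scaled FPKM of Notch1, against 7.77, 7.61 and 8.995 in wild type females. All 6 mutant libraries lay above all 6 wild type libraries, which 6.8% of tested genes also showed, and no member showed the reverse, as 10.3% did. Over both sexes the log2 fold change of mutant over wild type was 0.45 (SE 0.074, limma adjusted p = 0.0008), with 0.52 for the males (SE 0.105, adjusted p = 0.0078) and 0.39 for the females (SE 0.105, adjusted p = 0.0194). After the GC and length correction the value over both sexes was 0.10 (SE 0.06, adjusted p = 0.254). The call in females was lost without mutant female 3 (log2 fold change 0.29, adjusted p = 0.0559), wild type female 1 (0.36, 0.0706) or wild type female 2 (0.34, 0.0706).

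Notch2 (ENSMUSG00000027878, chromosome 3, 97920854 to 98057677 in mm39) was the most abundant receptor transcript in every group. Its levels were 27.33, 26.83 and 27.38 scaled FPKM in mutant males, against 22.58, 19.58 and 21.92 in wild type males. Mutant females had 27.33, 25.02 and 33.35 scaled FPKM, against 23.21, 20.64 and 23.18 in wild type females. Every mutant library was again above every wild type library, and the 3 mutant males were close together. A log2 fold change of 0.34 over both sexes (SE 0.071, limma adjusted p = 0.00313) stood beside 0.34 for males (SE 0.101, adjusted p = 0.0345) and 0.34 for females (SE 0.101, adjusted p = 0.0279). The corrected value over both sexes was 0.08 (SE 0.06, adjusted p = 0.369). Within a sex the call did not hold for many single libraries left out. In males the adjusted p was 0.0502 to 0.121 without any 1 of 7 libraries (the 6 male libraries and wild type female 1). In females it was 0.0541 to 0.0983 without any 1 of 4 (mutant female 3 and the 3 wild type females).

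Notch3 (ENSMUSG00000038146, chromosome 17, 32339794 to 32385826 in mm39), the receptor of vascular mural cells, was at 18.91, 18.65 and 23.09 scaled FPKM in mutant males, against 10.88, 12.20 and 14.49 in wild type males. In females its level was 15.44, 19.66 and 25.79 in the mutant, against 15.34, 14.54 and 15.63 in wild type. The groups did not overlap in males, which 21.1% of tested genes also showed in that direction, and in females mutant female 1 lay among the wild type libraries. Its log2 fold change was 0.53 over both sexes (SE 0.116, limma adjusted p = 0.00422), 0.67 for males (SE 0.163, adjusted p = 0.0166) and 0.38 for females (SE 0.163, adjusted p = 0.104). Without mutant female 1 the value in females was 0.56 (adjusted p = 0.0158). The call in males was lost without mutant male 3 (0.58, adjusted p = 0.0522) or wild type male 1 (0.58, adjusted p = 0.0728), and after the correction the value over both sexes was 0.14 (SE 0.09, adjusted p = 0.288).

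The summed level of 8 mural cell markers was 180 to 215 scaled FPKM in mutant males and 148, 227 and 257 in mutant females 1, 2 and 3, against 145 to 191 in wild type males and 172 to 190 in wild type females. This sum had the order of the Notch3 levels within each mutant group, and not within either wild type group. Wild type female 2 had the highest sum of its group (190) and the lowest Notch3 (14.54). Wild type male 3 had the lowest sum of its group (145) and the highest Notch3 (14.49). Over both sexes 3 of the 8 markers rose, Cspg4, Kcnj8 and Ndufa4l2, and 0 fell. Of all tested genes, 18.9% were called higher in that comparison and 21.6% lower. None of the 8 markers was under 0.1 scaled FPKM in all libraries. The part of mural cells in the Notch3 result was not tested. The 4 basal epithelial markers all rose over both sexes, where 18.9% of all tested genes rose. Of these 4 markers, Krt5 had a log2 fold change of 1.54 (limma adjusted p = 0.0003287). The summed level of the 4 was 407 to 569 in mutant males and 441 to 877 in mutant females. In wild type males it was 259 to 427 and in wild type females 302 to 391. It had the order of the Notch1 levels within mutant males and wild type females, and not within mutant females and wild type males. Notch1 in mutant males was at 11.66, 11.67 and 11.49 scaled FPKM, so its order there rests on very small differences. The part of the basal marker level in the Notch1 result was not tested. Marker values after the GC and length correction are not given here.

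**Figure D1:**
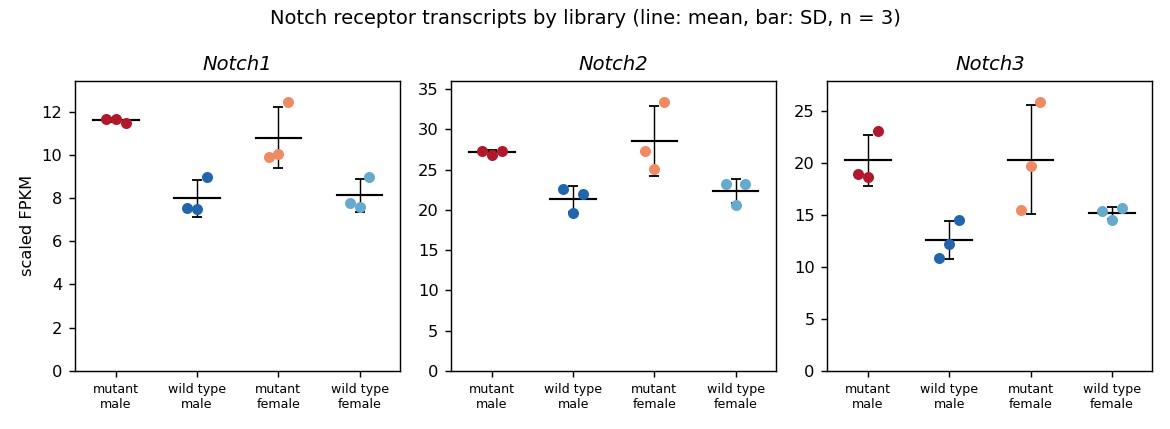
Scaled FPKM of Notch1, Notch2 and Notch3 (vertical axis from 0) in the 12 libraries, by group, with the mean as a line and the SD as a bar (n = 3). Mutant libraries of Notch1 and Notch2 all lie above the wild type libraries, and for Notch3 mutant female 1, at 15.44, lies level with the wild type females.

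Summed over Notch1, Notch2, Notch3 and Notch4, receptor transcripts averaged 61.2 ± 2.84 scaled FPKM in mutant males and 61.5 ± 10.6 in mutant females, against 43.4 ± 3.1 in wild type males and 47.0 ± 2.49 in wild type females (SD, n = 3). The lowest mutant library had 54.0 and the highest wild type library 49.2. The composition moved less than the sum. Notch2 made up 44.5% ± 1.72 of the sum in mutant males and 46.6% ± 3.5 in mutant females, against 49.3% ± 3.59 in wild type males and 47.5% ± 1.25 in wild type females. The share of Notch3 was 32.9% ± 2.48 and 32.7% ± 3.59 in mutant males and mutant females, against 28.8% ± 2.74 and 32.3% ± 0.5 in wild type males and wild type females. Notch1 made up 17.3% to 19.0% and Notch4 2.97% to 3.62% in the means of the 4 groups. These sums and shares were not tested.

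**Figure D2:**
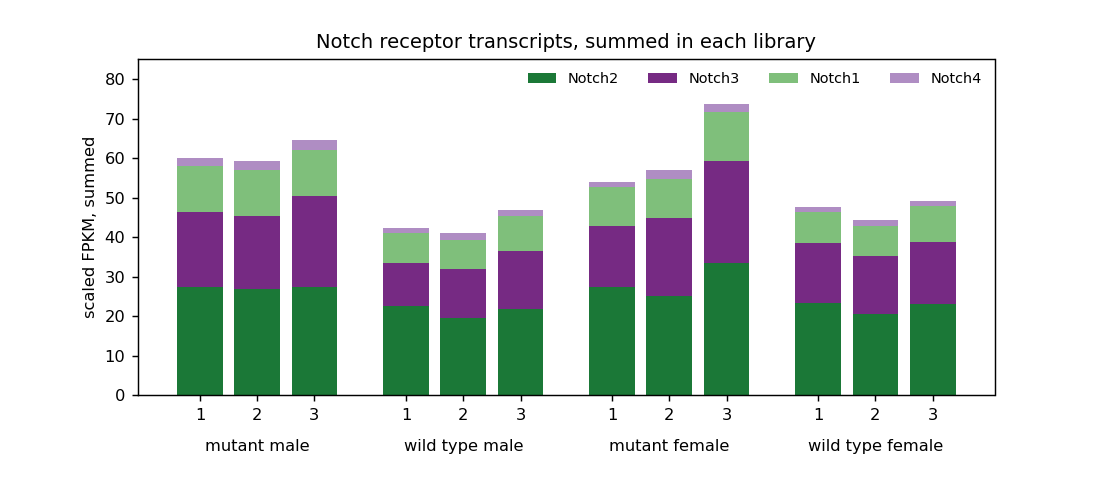
Scaled FPKM of the 4 receptor genes stacked for each library (vertical axis from 0), with the libraries numbered by replicate under each group. The 6 mutant stacks reach 54.0 to 73.7 and the 6 wild type stacks 41.0 to 49.2, with Notch2 the largest part in every library.

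The ligand genes did not pass the test. Jag1 (ENSMUSG00000027276, chromosome 2, 136923376 to 136958564 in mm39), whose product signals in vessels, bile ducts and many epithelia, was at 13.30, 13.60 and 17.69 scaled FPKM in mutant males, against 10.64, 13.51 and 13.75 in wild type males. Mutant females had 14.17, 13.56 and 16.68, against 13.82, 15.10 and 14.92 in wild type females. The groups overlapped in both sexes, with wild type male 1 the lowest of the 12 libraries. The log2 fold change over both sexes was 0.12 (95% interval -0.08 to 0.32, limma adjusted p = 0.322). Dll1 (ENSMUSG00000014773, chromosome 17, 15587616 to 15597134 in mm39), the Delta-like ligand of segmentation and neurogenesis, was at 1.89 to 2.27 in mutant males and 2.02 to 3.02 in mutant females, against 1.65 to 2.42 in wild type males and 1.96 to 2.60 in wild type females. Its groups overlapped as well, and the log2 fold change over both sexes was 0.07 (95% interval -0.18 to 0.32, adjusted p = 0.654). For both ligands the sign over both sexes was negative in FPKM as deposited and after scaling to library sums, and for Dll1 also after the GC and length correction.

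Hey2 (ENSMUSG00000019789, chromosome 10, 30708355 to 30718797 in mm39), a repressor known from heart and arteries, was the target gene that was called. Mutant males had 2.02, 1.495 and 2.67 scaled FPKM, against 2.90, 2.73 and 3.16 in wild type males. Mutant females had 1.26, 1.52 and 0.76, against 2.03, 1.97 and 2.13 in wild type females. Every mutant library was below every wild type library of its sex, as it was for 22.4% of tested genes in males and 22.2% in females. Its log2 fold change was -0.54 over both sexes (SE 0.135, limma adjusted p = 0.00891), -0.63 for females (SE 0.191, adjusted p = 0.0314) and -0.44 for males (SE 0.191, adjusted p = 0.125). On this scale, log2 of the scaled FPKM plus 0.5, the fold change of so low a gene is understated. After the GC and length correction it was -0.36 over both sexes (SE 0.132, adjusted p = 0.0817). In females the call was lost without mutant female 3 (-0.43, adjusted p = 0.0949) and without any 1 of the 3 wild type females (-0.65 to -0.60, adjusted p from 0.0682 to 0.0875). The summed level of 8 endothelial markers was 119 to 145 in mutant males and 78.3 to 122 in mutant females, against 108 to 135 in wild type males and 120 to 135 in wild type females. Of these 8 markers 2 were called lower for females, 1 for males and 1 over both sexes, and 0 were called higher in any of the 3 comparisons. Of all tested genes, 15.9% were called lower for females, 11.6% for males and 21.6% over both sexes. Those called higher were 12.1%, 8.64% and 18.9% in the same order. The part of endothelial cells in the Hey2 result was not tested.

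Hes1 (ENSMUSG00000022528, chromosome 16, 29884158 to 29886614 in mm39), the repressor that many tissues use to hold progenitors, had 36.29, 29.65 and 36.84 scaled FPKM among mutant females, against 28.96, 27.31 and 24.86 in wild type females. In males it was at 25.13, 27.44 and 21.99 in the mutant, against 20.62, 21.16 and 26.92 in wild type. The female groups did not overlap, which 20.4% of tested genes also showed in that direction, and the male groups did. Its log2 fold change missed the threshold over both sexes (0.23, SE 0.088, limma adjusted p = 0.0605), for females (0.33, SE 0.125, adjusted p = 0.0678) and for males (0.12, SE 0.125, adjusted p = 0.534). It passed over both sexes without mutant female 2 (0.28, adjusted p = 0.0255), mutant male 3 (0.27, 0.0383) or wild type male 3 (0.28, 0.0183), and in females without mutant female 2 (0.43, 0.0286) or wild type male 3 (0.33, 0.0423). With a GC content of 50.7% it lies where the median change of all genes was near 0, and its corrected value over both sexes was 0.24 (SE 0.085, adjusted p = 0.0749).

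Hey1 (ENSMUSG00000040289, chromosome 3, 8728419 to 8732316 in mm39), a close relative of Hey2, was at 5.73 to 6.93 scaled FPKM in mutant males and at 2.55, 4.64 and 5.89 in mutant females, against 4.90 to 7.63 in wild type males and 4.97 to 6.77 in wild type females. Mutant female 1 was the lowest of the 12 libraries, and the groups overlapped in both sexes. Its log2 fold change over both sexes was -0.17 (95% interval -0.55 to 0.21, limma adjusted p = 0.456). Heyl (ENSMUSG00000032744, chromosome 4, 123127349 to 123143668 in mm39), the family member of vascular smooth muscle, was at 6.19 to 8.60 in mutant males and 4.46 to 5.04 in mutant females, against 4.82 to 7.66 in wild type males and 3.70 to 4.57 in wild type females. Again the groups overlapped in both sexes, and the log2 fold change over both sexes was 0.21 (95% interval -0.05 to 0.47, adjusted p = 0.172). It passed without wild type male 2 (0.31, adjusted p = 0.0302).

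**Figure D3:**
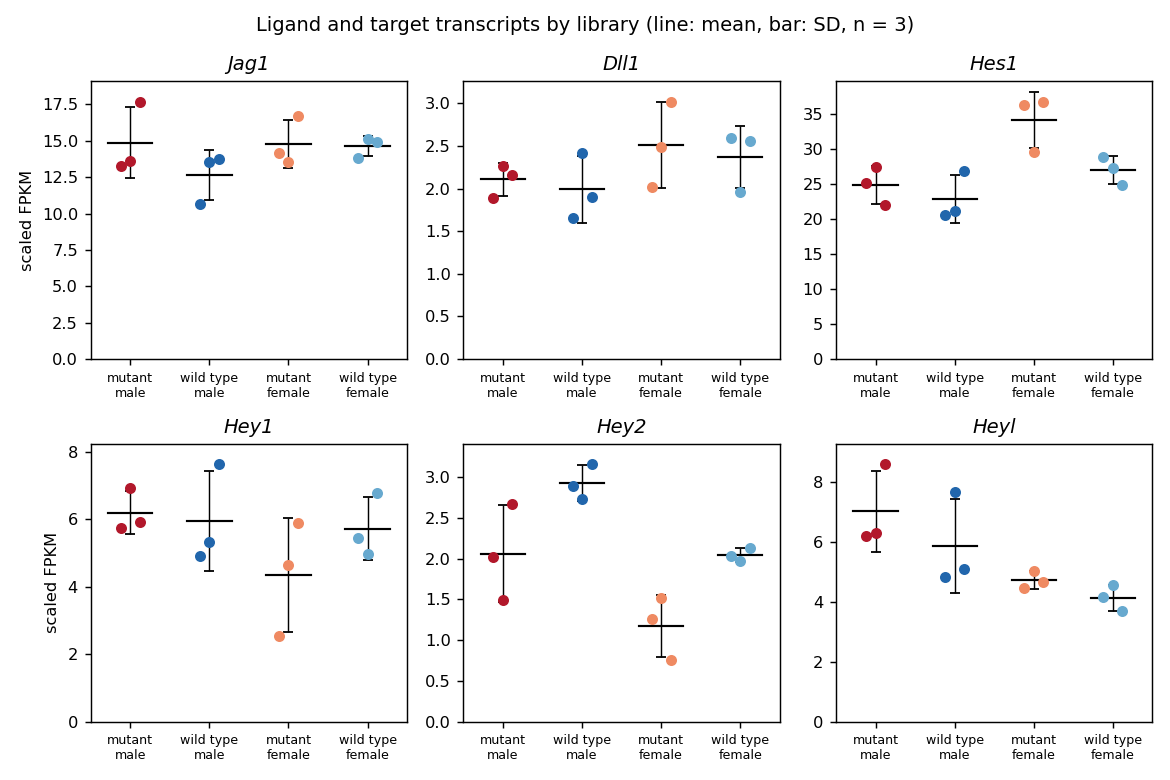
Scaled FPKM of the 2 ligand and 4 target genes (vertical axes from 0) in the 12 libraries, by group, with the mean as a line and the SD as a bar (n = 3). Hey2 is lower in mutant than in wild type libraries of the same sex without overlap, and Jag1, Dll1, Hey1 and Heyl overlap in both sexes.

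Notch1, Notch2 and Notch3 were higher in the mutant under each of the 22 alternative settings, over both sexes as well as within each, and Hey2 lower under each of 21, so no scaling turned their direction. Their size did depend on the setting. Over both sexes the log2 fold change ranged from 0.10 to 0.49 for Notch1, 0.08 to 0.39 for Notch2, 0.14 to 0.62 for Notch3 and -0.71 to -0.36 for Hey2, and for each the value nearest 0 was the one corrected for GC content and length. GC content was 57.1% for Notch1, 53.6% for Notch2 and 59.6% for Notch3, in the 2 bins where the median change of all genes was 0.13 and 0.25, and 45.9% for Hey2, in the bin where it was -0.14. Relative depth splits the libraries exactly by genotype, so depth and genotype cannot be told apart here. Counts also moved with single libraries. In males 1 member was called without mutant male 3 or wild type male 1, and 0 without the 3 libraries rich in Rn7sk. In that fit mutant male 2 stood alone and was assumed to vary like the other groups, and 0.452% of all genes were called. Calls over all genes in males were 17.6% without mutant male 3 and 9.02% without wild type male 1, against 20.3%. In females 0 members were called without mutant female 3, wild type female 1 or wild type female 2, and 1 without wild type female 3. Calls over all genes in females were 24.2%, 17.6%, 20.1% and 18.9% in these fits in turn, against 28%. Over both sexes 4 or 5 members were called whichever library was left out, where 33.8% to 46% of all genes were.

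**Figure D4:**
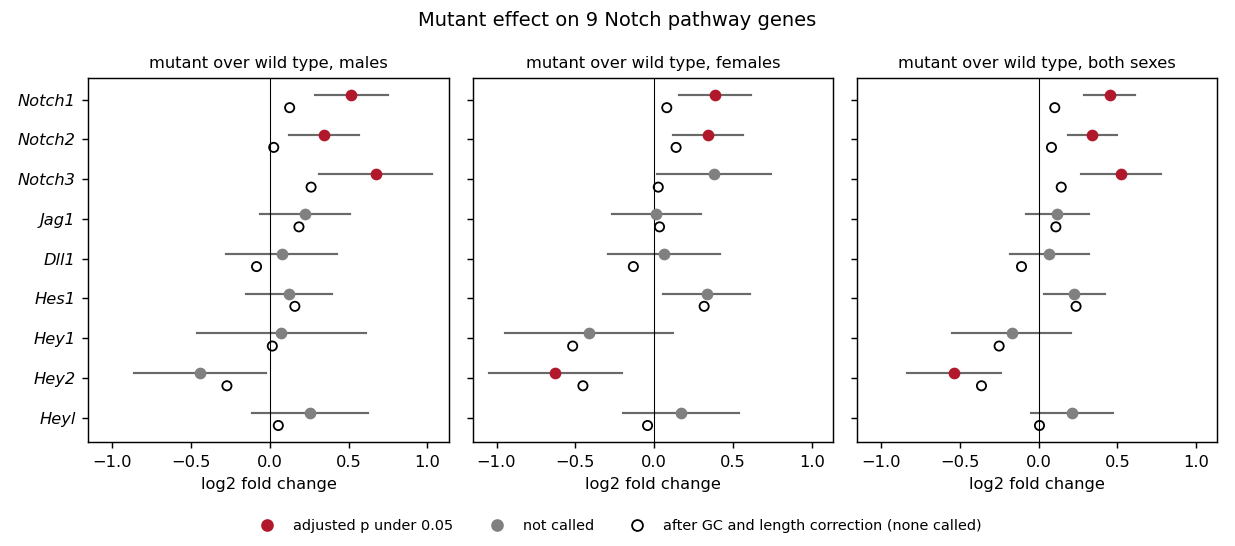
Log2 fold change of mutant over wild type for the 9 genes, in a panel for males, one for females and one for both sexes, with filled points for limma's values (red where called), lines for their 95% intervals and open circles for the values after the GC and length correction. The filled points of Notch1, Notch2 and Notch3 lie right of 0 and those of Hey2 left of it, and their open circles lie nearer to 0.

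The mutant effect was then compared between the sexes. The difference of the log2 fold changes, male minus female, was 0.13 for Notch1 (SE 0.148), 0.004 for Notch2 (SE 0.142), 0.29 for Notch3 (SE 0.231) and 0.18 for Hey2 (SE 0.271). Hes1 had -0.21 (SE 0.176) and Hey1 had 0.49 (SE 0.344), with 95% intervals of -0.60 to 0.18 and -0.27 to 1.24. limma called 0 of the 9 members and 0 of 13904 genes (0%), and at an unadjusted p under 0.05 there were 0 members and 1225 genes (8.81%). Calls in one sex and not in the other, as for Notch3 or Hey2, therefore do not show that the sexes differ.

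Male and female tissue were compared next within each genotype. In mutants, Hes1 was lower in males, at 25.13, 27.44 and 21.99 scaled FPKM, than in females, at 36.29, 29.65 and 36.84. No mutant male reached a mutant female, as for 11.6% of tested genes in that direction. The log2 fold change of male over female was -0.45 (SE 0.125, limma adjusted p = 0.04998), the only one of the 9 members that was called, where 7.49% of tested genes were called, 3.98% higher and 3.52% lower. That call stands at the threshold. It was lost without any 1 of 10 libraries (all but mutant female 2 and wild type male 3), with adjusted p from 0.0612 to 0.171, and the corrected value was -0.41 (adjusted p = 0.0738). Hey2 in mutant males against mutant females had a log2 fold change of 0.61 (SE 0.191, adjusted p = 0.077), Heyl, whose groups did not overlap, as for 13.1% of tested genes, 0.51 (adjusted p = 0.087) and Hey1 0.52 (adjusted p = 0.21). Without mutant female 2 Hey2 was called (0.76, adjusted p = 0.0401), and without wild type male 2 Heyl was (0.51, adjusted p = 0.0461). In wild type tissue limma called 0 of 9 members, where 3.18% of tested genes were called (1.95% higher, 1.23% lower), and 2 members had an unadjusted p under 0.05, as had 18.3% of tested genes. There Hey2 had 0.43 (SE 0.191, adjusted p = 0.267) and Heyl 0.43, without overlap, as for 17.3% of tested genes. Hes1 had -0.24 and overlapped, while Notch3 and Jag1 were lower in wild type males without overlap, as 14.5% of genes were, and were not called (-0.28, adjusted p = 0.4, and -0.21, adjusted p = 0.413).

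Males were also compared with females over both genotypes, a comparison chosen after the values had been seen. Of the 9 members, Hey2, Heyl, Hes1, Hey1, Notch2 and Dll1 had the same sign in both genotypes. Hey2 was higher in males (log2 fold change 0.52, SE 0.135, limma adjusted p = 0.0279), as was Heyl (0.47, SE 0.118, adjusted p = 0.0239), and Hes1 was lower (-0.35, SE 0.088, adjusted p = 0.0248). These 3 of 9 members compare with 13.5% of all tested genes, 7.5% higher and 6.01% lower. In none of the 9 did all 6 males lie on one side of all 6 females, as 2.57% of genes did above and 2% below. Unlike the genotype calls, they also passed after the GC and length correction, at 0.49 for Hey2 (adjusted p = 0.0341), 0.48 for Heyl (adjusted p = 0.0202) and -0.33 for Hes1 (adjusted p = 0.0289). They did not hold for every library left out: the count was 0 without mutant male 3 or wild type female 1, 1 without wild type female 2, wild type female 3, wild type male 1 or wild type male 2, and 2 without mutant male 1 or wild type male 3. In these 8 fits 7.89% to 13.1% of all genes were called, against 13.5%. Hey2 lost its call without any 1 of these 8 libraries (adjusted p from 0.0509 to 0.0686). Without the 3 libraries rich in Rn7sk the count was 0, where 2.61% of all genes were called. Female tissue included the vagina, so anatomy and sex cannot be told apart in these samples.

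For each member called in the planned comparisons, the gene of nearest pattern was the one with the smallest mean absolute difference of log2 values, each centred on its mean, over the 12 libraries and 11317 candidate genes. Notch1 was nearest to Ddr1, a collagen receptor (0.0428 on the log2 scale, against a median of 0.272 over the candidates), and to Midn (0.0443). Notch2 was nearest to Tmem8b (0.0637) and Ambra1 (0.064). Close to Notch3 was Gli2, a transcription factor of hedgehog signalling (0.0642). Close to Hes1 was the ribosomal protein gene Rplp0 (0.0567), which has near-identical copies elsewhere in the genome. Nearest to Hey2 were Dmxl2 (0.0935) and Kazald1 (0.108). These differences scale with the spread of each member, and the median over the candidates was 0.376 for Hey2, 0.319 for Notch3, 0.254 for Hes1 and 0.23 for Notch2.

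The wider pathway was read from 49 other genes, of which 42 were tested. Over both sexes 15 were higher and 8 lower in the mutant, where 18.9% of all tested genes were called higher and 21.6% lower. The numbers were 8 and 3 for males, where 8.64% of all tested genes were called higher and 11.6% lower. For females they were 9 and 6, where 12.1% of all tested genes were called higher and 15.9% lower. The total in males, 11, was 18 without mutant female 1 and 7 without wild type male 1. Calls over all genes in males, 20.3%, were then 28.5% and 9.02%. After the GC and length correction the higher and lower counts were 5 and 3 over both sexes, 1 and 0 for males, and 1 and 2 for females. Calls over all genes fell too, to 8.95% higher and 8.58% lower over both sexes, 1.91% and 1.73% for males, and 4.12% and 3.67% for females. The 15 higher genes had a median GC content of 58.7% (51.1% to 62.2%), and the 8 lower genes 44.2% (42.1% to 58.1%). By role, over both sexes, 5 of 8 tested genes of the nuclear complex rose and 0 fell, 1 of 9 cleavage genes rose and 3 fell, 1 of 5 glycosylation genes rose and 2 fell, and 4 of 12 genes of ligand endocytosis and receptor turnover rose and 3 fell.

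Furin, the protease that cuts the Notch precursor on its way to the membrane, had the greatest rise of the 42. Mutant males had 20.45, 18.68 and 22.24 scaled FPKM and mutant females 25.13, 21.39 and 24.48, against 12.47, 13.31 and 11.35 in wild type males and 10.60, 11.59 and 11.87 in wild type females. The mutant libraries were all above the wild type libraries, as they were for 6.8% of tested genes. Over both sexes its log2 fold change was 0.86 (SE 0.065, limma adjusted p = 3.694e-05), with 0.70 for males and 1.03 for females, and it was also called after the GC and length correction, at 0.62 (adjusted p = 0.000417). Spen, a corepressor that works with RBPJ, averaged 5.60 ± 0.549 scaled FPKM in mutant males and 4.63 ± 0.568 in mutant females, against 2.81 ± 0.383 in wild type males and 3.32 ± 0.132 in wild type females (SD, n = 3). Over both sexes its log2 fold change was 0.65, and 0.26 (limma adjusted p = 0.0457) after the correction.

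**Figure D5:**
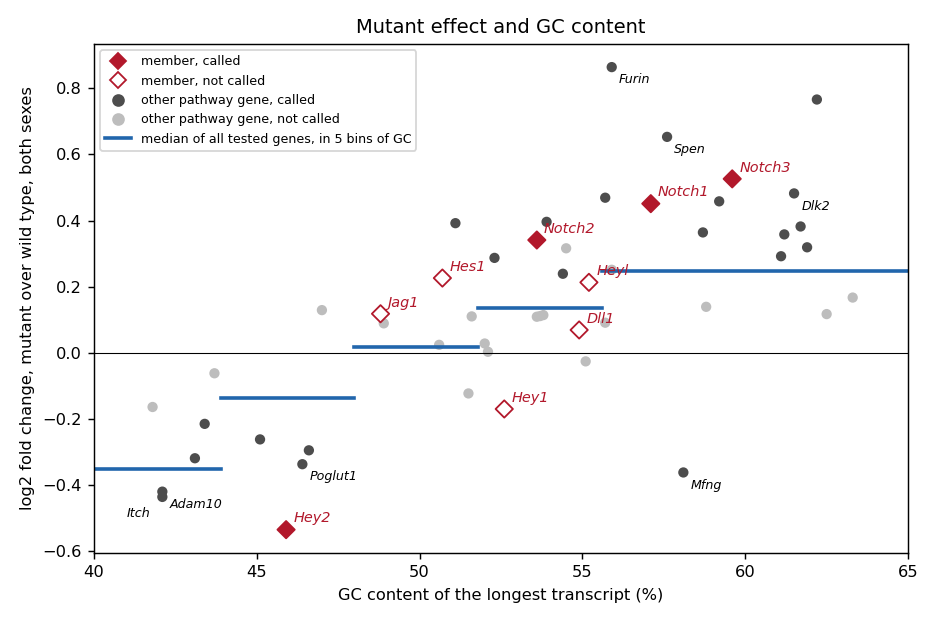
Log2 fold change of mutant over wild type over both sexes (vertical axis) against the GC content of the longest transcript in percent (horizontal axis, from 40), for the 9 members (diamonds) and the 42 other tested pathway genes (circles), with blue lines for the median of all tested genes in each of 5 bins of GC content. Hey2, Itch and Adam10 lie low at the left, and Notch1, Notch3 and Spen lie high at the right, with the blue medians going from -0.35 to 0.25.

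Among the genes that fell, Mfng, a Fringe enzyme that lengthens the sugars on Notch receptors, averaged 2.34 ± 0.127 scaled FPKM in mutant males and 1.90 ± 0.287 in mutant females, against 2.64 ± 0.26 in wild type males and 3.07 ± 0.173 in wild type females (SD, n = 3). Its log2 fold change was -0.58 in females (SE 0.113, limma adjusted p = 0.004069) and -0.14 in males (SE 0.113, adjusted p = 0.408), and it was called in females under all 21 settings that tested it. With a GC content of 58.1% it stood against the general trend. Poglut1, which adds glucose to the receptors, had -0.34 over both sexes (SE 0.059, adjusted p = 0.001113) and also passed after the correction. Itch, a ubiquitin ligase for Notch (-0.44), and Adam10, the protease of the first cut after ligand binding (-0.42), were called over both sexes but not after the correction, with corrected values of -0.14 (adjusted p = 0.0514) and -0.11 (adjusted p = 0.199). Fbxw7, which marks the cut receptor for breakdown, and Mib1, which promotes the endocytosis of ligands, fell in males (-0.34 and -0.31). Neither was called after the correction. For Fbxw7 the call was also lost without any 1 of 5 male libraries, all but mutant male 1 (adjusted p from 0.0553 to 0.0795).

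Of the pathway genes named whatever their result, Notch4, the endothelial receptor, and the ligand Jag2 were called over both sexes at 0.36 (SE 0.118, limma adjusted p = 0.0312) and 0.32 (SE 0.1, adjusted p = 0.0259). Both had corrected values near 0, at -0.02 and -0.04, so their direction turned with the correction, and leaving out any 1 of 7 libraries for Notch4 and of 6 for Jag2 ended the call. Dll4, the endothelial ligand, had 0.25 (adjusted p = 0.168), Lfng, another Fringe gene, 0.14 (adjusted p = 0.228) and Rbpj -0.06 (adjusted p = 0.81), of which Lfng and Rbpj changed sign after the correction. Nrarp, a target whose product dampens the pathway, was called in males (0.54, adjusted p = 0.0447) and not over both sexes (0.32, adjusted p = 0.0542). The call in males was lost without any 1 of 8 libraries (adjusted p from 0.055 to 0.167) and after the correction (0.42, adjusted p = 0.22), and over both sexes Nrarp passed without mutant female 1, mutant male 2 or wild type male 3 (0.35 to 0.42, adjusted p from 0.00413 to 0.0469). Dlk2, a Delta-like protein without the usual receptor-binding part, rose over both sexes (0.48, adjusted p = 0.004884), and Hes6, a relative of Hes1, rose in females (0.49, adjusted p = 0.009457). Neither was called after the correction, at 0.22 over both sexes for Dlk2 and 0.17 in females for Hes6. Dll3 and Hes5 did not pass the filter on low values and were not tested.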

How the data were processed

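The authors deposited FPKM, which relate the fragments of a gene to its length and to the size of the library, for 56495 genes in 12 libraries, per the file headers, with 0 columns of other samples. Per the labels' protocols, the libraries were strand-specific and made from total RNA depleted of ribosomal RNA. The submitters' processing notes name cutadapt 4.1, STAR 2.7.10a, Cufflinks 2.2.1, bedtools 2.30.0 and the builds mm39 and mm10. The counting options for strand and for reads with several matches are not given in the sources used here, so genes with near-identical copies or antisense partners are uncertain. Of the genes shared with GENCODE M21 (GRCm38), 2.74% had the same end, so positions are given as mm39. Gene lengths fitted starts counted from 0 in 46732 genes and from 1 in 148, so 1 was added to each start. Absolute depth is unknown, so no counting error is given.

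Libraries were scaled by their median ratio to each gene's geometric mean, taken over 11897 genes at 1 FPKM or more in all libraries (factors 0.748 to 1.131). Genes at 1 FPKM or more in at least 3 libraries, 13904 in all, were tested as log2 of scaled FPKM plus 0.5 with limma 3.58.1 in R 4.3.3. The fit used 4 group means, a trend in the prior variance, two-sided tests and Benjamini-Hochberg adjustment over all tested genes, and was tested on simulated data. GC content and length came from the longest GENCODE transcript, known for 98.8% of tested genes. The correction subtracted a smooth of each library's deviations on GC content and log2 length. Named genes were the 9 members. Of the other pathway genes they were up to 4 called rises and 4 called falls per genotype comparison and 8 named whatever their result, with the 2 nearest patterns of each called member. Some genes that this rule names are not reported here. Members, lists and alternatives were chosen with earlier results of these data known. The settings varied were the pseudocount (0.1 or 1), the filter (none, or 5 FPKM), the scaling (FPKM as deposited, library sums), a replicate block, the trend, the correction, leaving out the 3 libraries rich in Rn7sk, and leaving out each library. Alternatives for the other pathway genes and for the sex comparison over both genotypes were added after seeing the data.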

Additional observations from a re-analysis of the deposited data

How the results depend on the processing

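Fewer of the 9 members were called under several settings. Against 3 called in males, 0 were called in FPKM as deposited, after the GC and length correction and without the 3 libraries rich in Rn7sk. Calls over all genes in males also fell, to 9.71%, 3.63% and 0.452% under these 3 settings, against 20.3%. Against 3 in females, 1 was called with no filter, in FPKM as deposited and after scaling to library sums, and 0 after the correction. Against 4 over both sexes, 2 were called in FPKM as deposited and 0 after the correction. Without the Rn7sk libraries fewer members, and fewer of all genes, were called in females, over both sexes and between mutant males and mutant females. Counts from that fit are not given for these comparisons, as mutant male 2 stood alone in its group. Between mutant males and mutant females the count of 1 became 2 after scaling to library sums. It became 0 with a pseudocount of 0.1, no filter, a filter at 5 FPKM, FPKM as deposited, no trend and the correction. Between the sexes over both genotypes the count of 3 became 0 with no filter and without the Rn7sk libraries. Over all genes, calls in females went from 28% to 9.15% (no filter), 12% (as deposited), 31.3% (library sums) and 7.79% (corrected). Over both sexes they went from 40.6% to 24.6% (as deposited) and 17.5% (corrected). Between mutant males and mutant females they went from 7.49% to 13.9% (library sums), 2.02% (no filter), 2.88% (as deposited) and 5.69% (corrected). Between the sexes over both genotypes they went from 13.5% to 4.55% (no filter). Leaving out 1 library gave 4 to 5 members over both sexes, 1 to 3 in males, 0 to 4 in females, 0 to 2 for males against females in mutants and 0 to 3 between the sexes over both genotypes. The other pathway genes called were 7 (no filter), 4 (as deposited) and 1 (corrected) against 11 in males. They were 6 (as deposited) and 3 (corrected) against 15 in females, and 12 (as deposited) and 8 (corrected) against 23 over both sexes. Without the Rn7sk libraries fewer of them were called in males and over both sexes. With 1 library left out the other pathway genes called were 19 to 27 over both sexes, 7 to 18 in males and 11 to 20 in females. Calls over all genes were then 33.8% to 46% over both sexes, 8.96% to 28.5% in males and 17.6% to 29.7% in females. For males against females they were 3.12% to 9.88% in mutants and 7.89% to 19.7% over both genotypes. With no filter, 5.87% of all genes were called in males. The causes were not tested.

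Deviations from the group means, over the tested genes, correlated at -0.226 to 0.317 between same-numbered libraries of different groups. Libraries of unlike number were not compared, so these values cannot show whether the replicate numbers pair the libraries. With the replicate block 4 members were called over both sexes, 3 in males, 3 in females and 0 between the sexes in mutants. Calls over all genes were then 41.5%, 20.5%, 28.3% and 6.93% in the same order.

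The median of all genes shifted by -0.14 in males and -0.111 over both sexes in FPKM as deposited, and by -0.149 over both sexes, -0.211 in females and 0.175 for mutant males against mutant females after scaling to library sums. Calls in males were 1202 higher and 1618 lower, against 121 and 1229 in FPKM as deposited and 444 and 1992 with library sums. In females they were 1687 and 2208, against 231 and 1435, and 320 and 4038, and between the sexes in mutants 553 and 489, against 1702 and 230 with library sums.

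No genotype call among the 9 members changed direction. Signs turned in values that were not called, apart from Notch4 and Jag2. In FPKM as deposited, the log2 fold changes of mutant over wild type in males became -0.048 (Dll1), -0.031 (Hes1) and -0.067 (Hey1), in females -0.084 (Jag1) and -0.021 (Dll1), and over both sexes -0.006 (Jag1) and -0.034 (Dll1). Male over female became 0.046 (Notch1) and 0.008 (Notch2) in wild type and 0.017 (Jag1) in mutants. With library sums, males had -0.008 (Dll1) and -0.018 (Hey1), females -0.22 (Jag1), -0.137 (Dll1) and -0.044 (Heyl), and both sexes -0.047 (Jag1), -0.072 (Dll1) and -0.022 (Lfng). Male over female was 0.01 in wild type (Notch1), 0.113 (Notch2) and 0.17 (Jag1) in mutants and 0.042 over both genotypes (Notch2). After the correction, Dll1 stood at -0.084 among males, at -0.132 among females and at -0.108 with the sexes joined, Heyl -0.042 in females, and over both sexes Notch4 -0.016, Jag2 -0.037, Rbpj 0.154 and Lfng -0.108. Male over female in wild type was then 0.041 (Notch1) and 0.005 (Notch2). Without the Rn7sk libraries Jag1 had -0.003 in males, Rbpj 0.015 over both sexes, Notch1 0.014 between the sexes in wild type and Notch3 -0.086 between them in mutants. With 1 library left out, mutant over wild type ranged from -0.026 to 0.195 (Dll1) and -0.044 to 0.252 (Hey1) in males, from -0.069 to 0.073 (Jag1) and -0.054 to 0.185 (Dll1) in females, and from -0.202 to 0.06 (Rbpj) over both sexes. Male over female ranged from -0.105 to 0.048 (Notch1) and -0.142 to 0.154 (Hey1) in wild type, and from -0.148 to 0.052 (Notch2), -0.158 to 0.199 (Notch3) and -0.127 to 0.083 (Jag1) in mutants.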

Other observations

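Dner, which encodes a neuronal membrane protein reported as a ligand of Notch without the usual receptor-binding part, differed most between the sexes among the 42 other pathway genes tested, and was chosen after its values were seen. Mutant males had 11.52, 14.34 and 10.96 scaled FPKM, against 1.29, 2.94 and 2.48 in mutant females. Wild type males had 8.27, 8.91 and 10.77, against 2.57, 2.82 and 3.003 in wild type females. All 6 male libraries lay above all 6 female libraries, which 2.57% of tested genes also showed. The log2 fold change of male over female was 2.27 in mutants (limma adjusted p = 0.0001298) and 1.57 in wild type (adjusted p = 0.002441), and both were called under all 22 alternatives. The summed level of 6 neuronal markers was 229 to 313 in mutant males, against 26.7 to 324 in mutant females, and 356 to 389 in wild type males, against 242 to 304 in wild type females. Its part in the Dner difference was not tested.

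Hes6 was lower in mutant males than in mutant females, at 20.14, 23.02 and 18.78 against 34.14, 25.56 and 27.51 scaled FPKM. It was the 1 gene called lower there among the 42 other pathway genes tested, where 3.52% of all tested genes were called lower. Fits with a library left out are not given for it. The log2 fold change of Hes6, male over female, was -0.48 (limma adjusted p = 0.03049), and -0.38 (adjusted p = 0.0892) after the GC and length correction.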
